A study of Mus musculus with 24 samples.

Results

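The transcriptomes of aortic and skeletal muscle endothelium were compared in galectin-3-deficient (KO) mice. The comparison used the 12 KO arrays of a series of 24, chosen by their titles: 6 of aorta and 6 of muscle, with 3 chow and 3 high-fat diet (HFD) arrays in each tissue. The 12 wild-type (WT) arrays, of the same design, were set beside them. Every KO group carried the same constitutive allele, B6.Cg-Lgals3tm1Poi/J, which lacks exons 2 to 4 of Lgals3, and WT mice were C57BL/6J. All mice were male. From 8 weeks of age they were fed for 8 weeks, either HFD, in which fat made up 60% of calories, or chow, in which it made up 12%. The aorta was used down to the iliac bifurcation, starting at the arch by the labels and at the root by the methods, and the muscle was plantaris, gastrocnemius and biceps femoris. Tissue of 3 to 4 mice was pooled for each sample and digested, and flow sorting gave about 10000 viable cells a sample, gated on CD105 and against CD45. Their RNA was amplified and hybridised to single-colour Agilent Whole Mouse Genome arrays. Aorta and muscle with the same diet and trial number came from the same pooled mice. The p-values of the tissue comparison measure the spread between arrays, in which pool and slide are mixed. That comparison does not use the pairing except where a block for pairs is named.

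Endothelium lines all vessels but is not uniform. The aorta is a single large conduit under high pulsatile flow, whose endothelial cells lie on an elastic wall, whereas most endothelial cells of skeletal muscle lie in capillaries, wrapped by pericytes and in direct contact with fibres that take up fatty acids through them. Endothelial cells of both sites share a core program (VE-cadherin, VEGF receptors, Tie receptors), and differ by Notch-dependent arterial genes, by capillary genes of lipid uptake and by transcription factors that mark the region of the body. CD105 is endoglin, a co-receptor for transforming growth factor beta and bone morphogenetic proteins that is strong on endothelium but is also carried by some stromal cells, so cells other than endothelium can pass this gate. CD45 marks blood leukocytes. Galectin-3, which binds sugar chains on glycoproteins and advanced glycation end products, was absent by design from all 12 KO samples.

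Between 61.1% and 70.3% of the non-control spots were well above background on the KO arrays, and the share did not separate the tissues (aorta minus muscle −1.61 percentage points, two-sided exact permutation p = 0.429). The 4 arrays of a slide held 1 tissue and 1 trial, so slide and tissue can be told apart only as far as the 3 slides of a tissue vary. Trial 1 was scanned in one session and trials 2 and 3 in another. Strain was read on 35 probes that differed between KO and WT in trials 2 and 3. The arrays of those trials also set the scale, WT at 0 and KO at 1, and so lie near these values by construction. The chow arrays of trial 1, which did not set it, were at 1.02 (aorta) and 0.908 (muscle) in KO and at 0.0421 and 0.0848 in WT. The libraries labelled KO HFD of trial 1 were at 0.335 (aorta) and 0.405 (muscle), while the other 10 KO arrays were between 0.883 and 1.12. The WT HFD arrays of trial 1 lay toward KO as well, at 0.196 (aorta) and 0.331 (muscle), against −0.125 to 0.0848 for the other 10 WT arrays. The cause was not tested, and the genotype labels of the 4 HFD libraries of trial 1 are in doubt. Without the 2 KO libraries among them 3968 probes passed in place of 5862. Among the genes named below Cdh5, Kdr, Flt1, Meox2, Eln, Nos3, Efnb2, Marco, Aqp7, Col4a2 and Cxcl12 then lost their calls (adjusted p between 0.0577 and 0.148). The chow aorta array of trial 1 was the only KO aorta array whose highest correlation over probes with a muscle array (r = 0.938) exceeded its median correlation with aorta arrays (0.934).

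Each value below is a level, the log2 of the processed signal relative to the 75th percentile of its array, or a difference, mean aorta minus mean muscle on that scale (n = 6 arrays each, diet as a covariate, limma). Of 26342 probes tested, 5862 (22.3%) passed at a Benjamini-Hochberg adjusted p under 0.05, 2700 (10.2%) higher in aorta and 3162 (12.0%) higher in muscle. With a block for each pair of tissues from the same mice 8425 passed, 5277 of them higher in muscle. At an unadjusted p under 0.05 stood 36.2%, and 9.22% were called and more than 1 higher in aorta on the log2 scale, against 7.95% in muscle. The median difference over all probes was −0.27 and the range −8.02 to 10.19. On this scale the differences toward aorta were larger, with a median of 2.27 over the probes called higher in aorta against −1.17 over those called higher in muscle. Without any overlap between the 6 aorta and 6 muscle arrays were 2837 probes (10.8%), 1555 (5.90%) higher in aorta and 1282 (4.87%) higher in muscle. The share of called probes that were higher in aorta was 46.1% on this scale, 71.7% in the log2 table that the authors deposited, where the median difference was 0.00, and 96.4% when each array was scaled to its pan-endothelial genes, where the median was 0.77. The direction of a moderate difference thus depended on the scale. The endothelial scaling, chosen after seeing the data, is given below for the main groups and genes. On that scale 9298 of the 26342 probes passed higher in aorta and 349 higher in muscle. Counts of list members below are to be read beside these counts over all probes, each on its own scale. Trial 2 carried most weight: without it 1900 probes passed, against 3558 without trial 1 and 3244 without trial 3. With 2 arrays a tissue in trial 1 alone no probe passed (3564 at an unadjusted p under 0.05).

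The sorted cells carried the endothelial program in both tissues, at a lower level in aorta. The mean level of the 20 pan-endothelial genes was between 3.10 and 4.69 on aorta arrays and between 4.93 and 5.31 on muscle arrays, with no overlap. None of the 20 passed higher in aorta and 15 passed higher in muscle, with a median difference of −0.98 against −0.27 over all probes. With quantile normalization 8 pan-endothelial genes passed higher in muscle, and 6 did in the deposited table. Eng, which encodes the CD105 of the gate, ranged from 2.95 to 3.94 in aorta (median 3.58) and from 4.31 to 4.91 in muscle (median 4.47). The groups did not overlap, and the difference was −1.02 (SE 0.23, adjusted p = 0.00788), a call lost without trial 1 (0.059) or trial 2 (0.101). Cdh5 (VE-cadherin, the adhesion molecule of endothelial junctions) differed by −0.87 (adjusted p = 0.0134), Kdr (VEGF receptor 2) by −0.88 (0.0155) and Tie1 by −1.73 (0.00861), while Pecam1 (CD31) at −0.85 (0.208) and Vwf (von Willebrand factor) at −0.27 (0.536) did not pass. Cdh5 lost its call without any 1 trial (0.0665, 0.129 and 0.076), Kdr without trial 2 (0.186) or 3 (0.0941) and Tie1 without trial 1 (0.0646) or 2 (0.126). By count, 5 pan-endothelial genes passed higher in muscle without trial 1, 1 without trial 2, 4 without trial 3 and 7 without the HFD arrays of trial 1. Scaled to the list itself, Eng, Cdh5 and Kdr lay at 0.02, 0.17 and 0.15, Tie1 lost its call (−0.70, 0.109) and Vwf passed higher in aorta (0.76, 0.0454).

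Genes of several other cell types differed more than the endothelial ones did, as the plot of marker lists shows. Fibroblast markers were the largest block on the aortic side. Of 14, 13 passed higher in aorta and none higher in muscle, with a median difference of 4.13, and the mean level of the list was between 4.33 and 5.61 on aorta arrays and between −0.92 and 2.53 on muscle arrays. Pdgfra, the receptor that defines fibroblasts and other mesenchymal cells, lay between 3.24 and 4.76 in aorta (median 4.00) and between −1.25 and 1.49 in muscle (median 0.02). Its difference was 3.99 (SE 0.38, adjusted p = 2.53e-05). Pi16, a marker of adventitial fibroblasts, differed by 5.47 (SE 0.55, adjusted p = 3.49e-05) and the matrix gene Fbln1 by 7.73 (SE 1.01, adjusted p = 0.000218). The groups did not overlap for any of these 3 genes. Between 9 and 13 fibroblast markers still passed when any 1 trial was left out, and 12 without the HFD arrays of trial 1. Fewer cells of a type and less RNA per cell cannot be told apart in these bulk samples, and the part that fibroblasts or other admixed cells had in the results that follow was not tested.

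**Figure D1:**
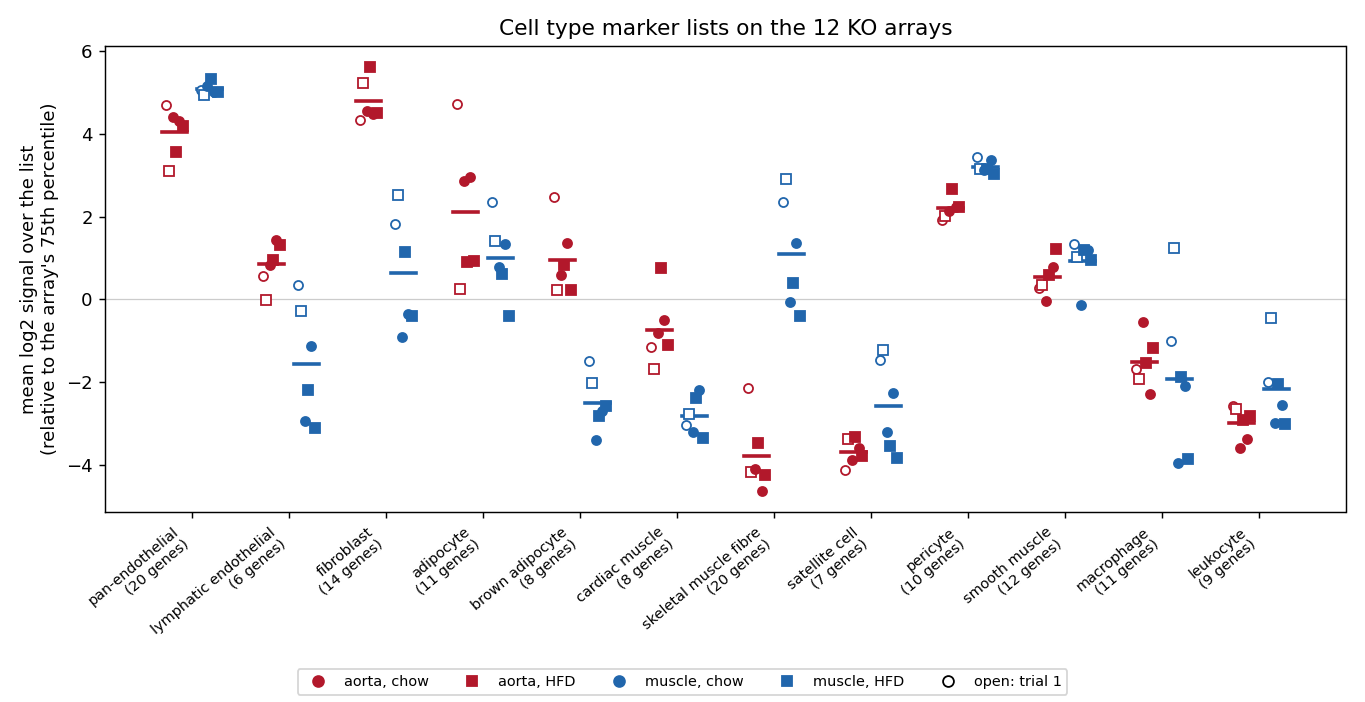
Mean log2 signal of 12 cell type marker lists (y axis, relative to the array's 75th percentile) on each KO array, red for aorta and blue for muscle, circles for chow and squares for HFD, open for trial 1, with a bar at the mean of the 6 arrays. The fibroblast and brown adipocyte lists were higher on all aorta arrays, the pan-endothelial and skeletal muscle fibre lists on all muscle arrays, and the trial 1 muscle arrays were the highest of their tissue for fibroblast, fibre, lymphatic and macrophage markers.

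Skeletal muscle fibre genes were the counterpart on the muscle side. Of 20, 19 passed higher in muscle and none higher in aorta (median difference −4.47). The list's mean level was between −4.63 and −2.15 on aorta arrays and between −0.41 and 2.90 on muscle arrays. Ckm, the creatine kinase of muscle, was well above background on 2 of 6 aorta arrays and all 6 muscle arrays. Its levels ran from −6.80 to −4.90 in aorta (median −6.24) and from −0.70 to 2.39 in muscle (median 0.91), a difference of −7.12 (SE 0.54, adjusted p = 5.86e-06). Atp2a1, the calcium pump of fast fibres, was not well above background on any aorta array and was at least 39.3-fold higher in muscle (adjusted p = 9.64e-05). Skeletal muscle fibre genes remained on this side with the endothelial scaling, where 16 passed higher in muscle and none higher in aorta. Of 7 satellite cell genes, those of muscle stem cells, 3 passed higher in muscle and 1, Vcam1, higher in aorta. Of these 3, Des is also in the smooth muscle list.

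Promoters of the fibre list are shown because its members moved together and MyoD-family factors of muscle are known to bind E-boxes. The E-box CAGCTG, which reads the same on both strands, was found in 10 of 21 RefSeq promoters of the list (8 of 16 genes, 47.6% of the promoters) within the 250 bases before the start, against 13% of 32851 promoters of all genes. This is a description of these letters and not of binding. Of Ckm and Atp2a1 the 250 bases before the start are printed 5′ to 3′ along the gene (RefSeq, GRCm38.p6), with CAGCTG in capitals.
Ckm promoter, chr7:19410844-19411093, plus strand: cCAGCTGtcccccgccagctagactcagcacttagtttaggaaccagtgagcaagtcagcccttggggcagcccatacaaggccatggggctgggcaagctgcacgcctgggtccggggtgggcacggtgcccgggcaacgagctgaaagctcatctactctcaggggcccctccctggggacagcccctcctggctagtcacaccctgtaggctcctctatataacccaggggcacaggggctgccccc
Atp2a1 promoter, chr7:126463074-126463323, minus strand: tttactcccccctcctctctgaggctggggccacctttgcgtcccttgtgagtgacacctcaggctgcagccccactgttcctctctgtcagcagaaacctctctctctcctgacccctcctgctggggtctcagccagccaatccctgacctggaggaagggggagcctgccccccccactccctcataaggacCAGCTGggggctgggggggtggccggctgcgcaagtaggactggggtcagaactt

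Fat cell genes split by type. Of 8 brown adipocyte genes, 4 passed higher in aorta and 1 higher in muscle, and the mean level of the list was between 0.23 and 2.48 in aorta and between −3.39 and −1.49 in muscle. Ucp1, the uncoupling protein that makes heat in brown fat, had the largest fitted difference of all probes tested, though most muscle arrays did not read it above background. It ranged from 1.82 to 4.89 in aorta (median 2.64), and from −9.13 to −5.31 in muscle (median −7.06), where 1 of 6 arrays was well above background. The difference was 10.19 (SE 0.69, adjusted p = 3.67e-06). Cidea, a lipid droplet protein of brown fat, differed by 6.26 (SE 0.61, adjusted p = 2.78e-05), and Elovl3, a fatty acid elongase, was at least 13.3-fold higher in aorta. Prdm16, a transcription factor of brown fat that endothelium also expresses, ran the other way, with −0.05 to 1.08 in aorta and 2.47 to 3.33 in muscle (difference −2.08, SE 0.25, adjusted p = 0.00013). Of 11 general adipocyte genes, 3 passed higher in aorta and 2 higher in muscle, with 4 and 0 in the deposited table and 7 and 0 under the endothelial scaling. Their mean level was between 2.86 and 4.72 on the chow aorta arrays, highest in trial 1, and between 0.24 and 0.93 on the HFD aorta arrays, beside −0.41 to 2.35 in muscle. Without trial 1, 7 adipocyte genes passed higher in aorta, and without trial 2 or trial 3 none did.

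Several mural cell genes were higher in muscle. Of 10 pericyte genes, 6 passed higher in muscle and 1 higher in aorta. Rgs5, a regulator of G protein signalling that marks pericytes, was between −1.88 and 1.18 in aorta (median 0.16) and between 1.79 and 3.90 in muscle (median 3.19). The difference was −3.19 (SE 0.37, adjusted p = 9.03e-05) and was −2.16 with the endothelial scaling (adjusted p = 0.000621). Vtn (vitronectin, −2.55, adjusted p = 6.13e-05) and Higd1b (−2.40, adjusted p = 0.00351) also stayed called under that scaling, at −1.52 and −1.36, whereas Pdgfrb, the defining receptor of mural cells, at −0.14 did not pass in either. Anpep (aminopeptidase N) was the 1 pericyte gene higher in aorta, by 2.41 (SE 0.40, adjusted p = 0.0012). Of 12 smooth muscle genes, 6 passed higher in muscle and none higher in aorta. Among the 6, Myh11, the smooth muscle myosin heavy chain, differed by −1.50 (adjusted p = 0.00403). It became −1.48 (0.0507) without trial 2 and −0.46 (0.232) with the endothelial scaling. Another of the 6, Des (desmin, −2.30, adjusted p = 0.0156), is also counted among the satellite cell genes above. Its call was lost without trial 1 (0.0744) or trial 2 (0.103). Acta2, smooth muscle actin, did not pass (0.12, adjusted p = 0.824). Under the endothelial scaling 3 smooth muscle genes passed higher in aorta and none higher in muscle, beside 9298 and 349 of 26342 probes.

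Lymphatic endothelial genes were higher in aorta in 4 of the 6 tested, with a median difference of 3.40. Lyve1, a hyaluronan receptor of lymphatic vessels, was between 2.87 and 4.94 in aorta (median 4.58) and between −2.33 and 2.82 in muscle (median 0.43), without overlap (difference 3.89, SE 0.74, adjusted p = 0.00304). Mmrn1 differed by 3.92 (adjusted p = 0.0027) and Reln by 2.91 (adjusted p = 0.00594). Pdpn (0.50, adjusted p = 0.383; 1.54 and 0.0274 under the endothelial scaling) and Flt4 (−1.27, adjusted p = 0.196) did not pass, and the lineage factor Prox1 was not well above background on all arrays of any KO group. No lymphatic endothelial gene passed without trial 2 or without trial 3, where Lyve1 was at 3.16 (0.104) and 3.08 (0.0612), and 4 passed without trial 1, whose muscle arrays were the highest in this list. Cardiac muscle genes passed higher in aorta in 4 of 8, including Tnnt2 (cardiac troponin T, 4.01, SE 0.54, adjusted p = 0.000262) and Myl7 (atrial myosin light chain, 4.35, SE 0.80, adjusted p = 0.0025), and Wt1, a factor of mesothelial cells, differed by 4.53 (SE 0.67, adjusted p = 0.000527). Of 11 macrophage genes 1 passed, beside 22.3% of all probes. It was Marco (3.31, adjusted p = 0.0423), a call lost without any 1 trial (0.0911, 0.21 and 0.0848). Of 9 leukocyte genes 2 passed higher in muscle and none higher in aorta, a share called close to the 22.3% over all probes. Ptprc, which encodes the CD45 gated against, was between −5.08 and −3.79 in aorta and between −5.35 and −0.83 in muscle and did not pass (−0.51, adjusted p = 0.571).

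Transcription factors that mark body regions differed in both directions. Of 22 regional transcription factors, 10 passed higher in aorta and 4 higher in muscle, beside 10.2% and 12.0% of all probes. Of the 22, 11 had no overlap, beside 10.8% of all probes. Foxc2, a forkhead factor of vascular and lymphatic development, ranged from 3.14 to 4.31 in aorta (median 3.59) and from −1.52 to −0.15 in muscle (median −0.99). Its difference was 4.47 (SE 0.28, adjusted p = 2.98e-06). The forkhead factors Foxp2 and Foxd1 differed by 5.35 (SE 0.33, adjusted p = 2.63e-06) and 5.24 (SE 0.42, adjusted p = 8.35e-06). Gata6, a zinc finger factor of heart and vessel wall, was at 3.71 to 4.61 in aorta and 0.18 to 1.505 in muscle (difference 3.12, SE 0.26, adjusted p = 1.14e-05), while its relative Gata4 did not differ beyond its error (0.00, SE 0.33). Irx5 (3.63), Tbx5 (3.03), Nkx2-3 (2.64), Tbx18 (1.97) and Foxc1 (0.69) were also among the regional transcription factors called higher in aorta. Foxc2, Foxp2, Foxd1, Irx5 and Gata6 passed in every alternative that tested them other than trial 1 alone. Irx5 was not tested where probes had to be above background on every array.

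On the muscle side stood Tcf15, Meox2, Tbx15 and Gata2. Tcf15 and Meox2 are known as partners that drive fatty acid uptake genes in heart and muscle endothelium. Tcf15 was between 2.72 and 4.81 in aorta (median 3.72) and between 5.22 and 5.91 in muscle (median 5.44), without overlap. Its difference was −1.81 (SE 0.30, adjusted p = 0.00111) and was −0.78 with the endothelial scaling (adjusted p = 0.0294). Meox2 differed by −0.64 (SE 0.18, adjusted p = 0.0222), with 4.00 to 4.49 in aorta and 4.61 to 4.997 in muscle, a call lost without any 1 trial (adjusted p = 0.102, 0.173 and 0.111) and at 0.39 (0.283) with the endothelial scaling. Of 21 genes of fatty acid uptake and handling, Tcf15, Meox2 and Lipe passed higher in muscle and Ppara and Vegfb higher in aorta. This share was close to the 22.3% called over all probes. Ppara, a nuclear receptor for fatty acids, differed by 3.53 (adjusted p = 0.00339) and lost its call without trial 3 (2.86, 0.0824). The transporters and lipases that take fatty acids from blood did not pass, with −0.66 for Cd36 (adjusted p = 0.0583), −0.80 for Gpihbp1 (0.0516) and −0.85 for Lpl (0.0501). With a block for each pair of tissues from the same mice, Cd36 (adjusted p = 0.0481), Gpihbp1 (0.0357) and Lpl (0.0306) passed higher in muscle, and with the endothelial scaling they lay at 0.38, 0.24 and 0.18. Fabp4 (−0.42, adjusted p = 0.172), the fatty acid binding protein of capillary endothelium, was between 6.12 and 7.31 on all arrays.

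**Figure D2:**
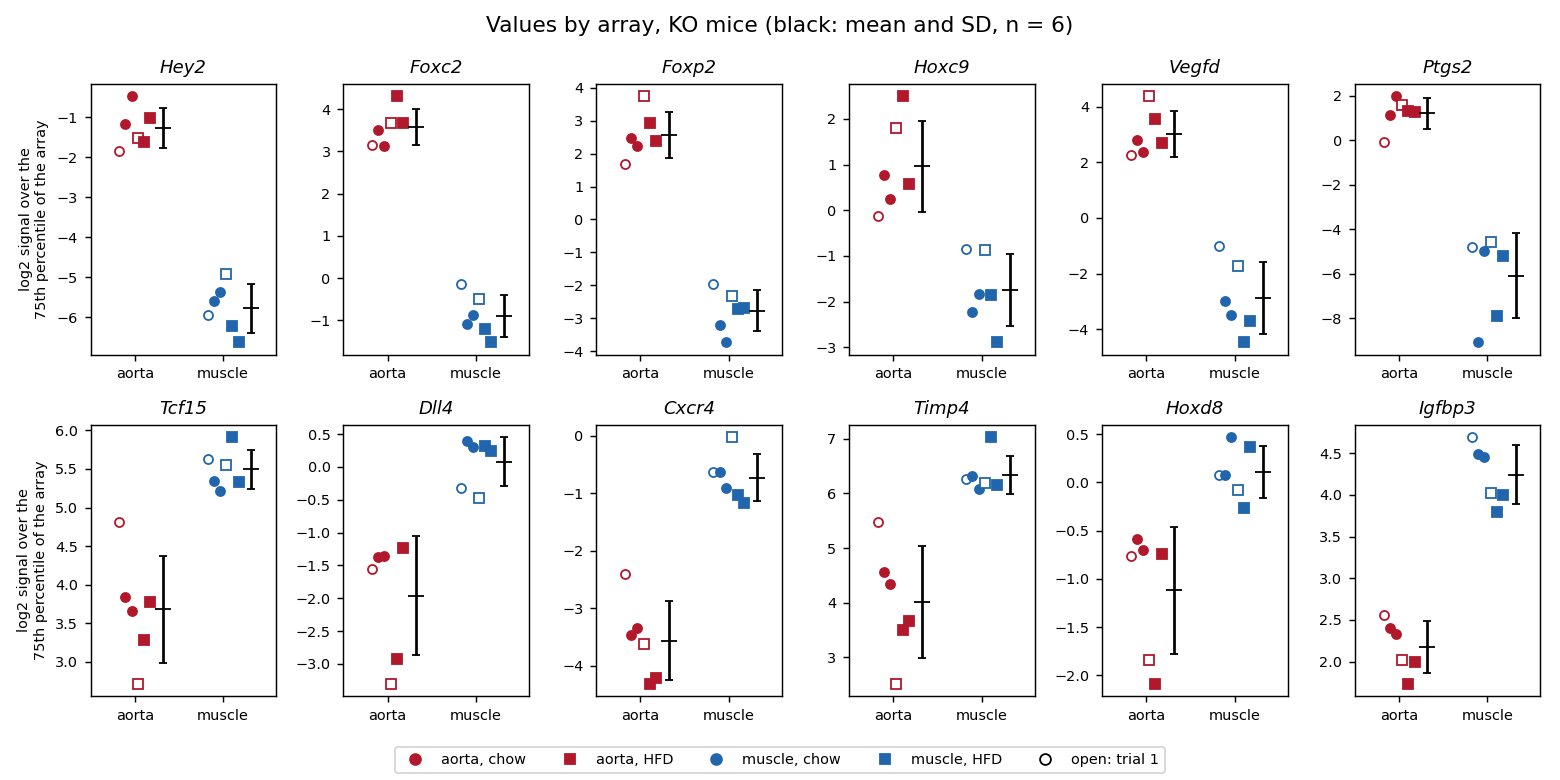
Log2 signal (y axis, relative to the array's 75th percentile; the axis range differs between panels) of 12 genes on the 12 KO arrays, red for aorta and blue for muscle, circles for chow and squares for HFD, open for trial 1, with the mean and SD of 6 arrays in black. The groups did not overlap for any of the 12 genes, of which Hey2, Foxc2, Foxp2, Hoxc9, Vegfd and Ptgs2 were higher in aorta and the others higher in muscle.

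HOX genes encode position along the body axis. Of 25 tested, 2 passed higher in aorta and 4 higher in muscle, a share close to that over all probes, with a median difference of 0.01 against −0.27 over all probes. Hoxc9 ran from −0.11 to 2.503 in aorta (median 0.67) and from −2.89 to −0.84 in muscle (median −1.84), a difference of 2.71 (SE 0.47, adjusted p = 0.00158), which was 2.24 (0.0636) without trial 2. Hoxa11 differed by 2.49 (adjusted p = 0.00648), and lost its call without trial 2 (0.0723) or trial 3 (0.052). Hoxd8 ran from −2.08 to −0.59 in aorta and from −0.26 to 0.47 in muscle (difference −1.23, SE 0.26, adjusted p = 0.00594), and was at −0.19 (0.581) with the endothelial scaling. Its call was lost without trial 1 (0.0673) or trial 2 (0.0585). In the HOX cluster list as a whole, no member passed without trial 2. Under the endothelial scaling 11 of the 25 passed higher in aorta and none higher in muscle, beside 9298 and 349 of 26342 probes.

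Arterial genes did not move as a block. Of 19 genes of Notch and arterial identity, 3 passed higher in aorta and 10 higher in muscle, with a median difference of −0.95. Hey2, a Notch target and repressor that specifies arterial fate, was between −1.85 and −0.47 in aorta (median −1.34). In muscle it was between −6.62 and −4.91 (median −5.76) and well above background on 2 of 6 arrays. The difference was 4.50 (SE 0.32, adjusted p = 4.17e-06). Hey2 passed in every alternative that tested it other than trial 1 alone. It was not tested where probes had to be above background on every array. Bmx, a kinase of arterial endothelium, was higher in aorta by 2.81 (SE 0.59, adjusted p = 0.00558), a call lost without trial 2 (2.78, 0.0749). The arterial connexins Gja5 (1.01, adjusted p = 0.211) and Gja4 (0.12, adjusted p = 0.781) did not pass, but did under the endothelial scaling (2.05, 0.00896, and 1.16, 0.0111). The third was Fbln5, an elastic fibre protein.

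The Notch ligand Dll4 ran opposite to Hey2. It was between −3.30 and −1.24 in aorta (median −1.47) and between −0.47 and 0.39 in muscle (median 0.27), without overlap. The difference was −2.04 (SE 0.36, adjusted p = 0.00173), with −1.003 (0.0173) under the endothelial scaling and −1.80 (0.0631) without trial 2. Cxcr4, a chemokine receptor of sprouting and arterial endothelium, was between −4.31 and −2.41 in aorta and between −1.18 and −0.03 in muscle (difference −2.83, SE 0.30, adjusted p = 5.12e-05), and stayed called under the endothelial scaling at −1.80 (0.00179). Sox17, an arterial factor, at −1.12 (adjusted p = 0.00989) came to −0.08 (0.796) under that scaling and to −1.08 (0.117) without trial 2. Notch1, Notch4, Jag2, Hey1, Efnb2, Nrp1 and Unc5b were the remaining arterial genes called higher in muscle. Under the endothelial scaling 5 genes of Notch and arterial identity passed higher in aorta and 3 higher in muscle. The count of 10 was 7 without trial 1, 1 without trial 2 and 8 without trial 3.

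The promoters of Hey2 and Dll4 are shown because the ligand and the target differed in opposite directions. The core letters TGGGAA of the site bound by RBPJ, the DNA-binding partner of Notch, were searched on both strands. They occurred in 3 of 18 promoters of the Notch and arterial identity list (16.7%) and in 21.6% of all promoters. In the 250 bases before the start (RefSeq, GRCm38.p6, 5′ to 3′ along the gene), Hey2 had 1 match, on the opposite strand and so printed in capitals as its reverse complement, and Dll4 had none.
Hey2 promoter, chr10:30842784-30843033, minus strand: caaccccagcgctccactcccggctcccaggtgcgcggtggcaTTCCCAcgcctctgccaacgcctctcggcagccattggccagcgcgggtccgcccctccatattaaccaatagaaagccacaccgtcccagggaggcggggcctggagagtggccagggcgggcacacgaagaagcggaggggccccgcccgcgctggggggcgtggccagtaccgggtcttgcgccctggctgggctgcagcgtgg
Dll4 promoter, chr2:119325534-119325783, plus strand: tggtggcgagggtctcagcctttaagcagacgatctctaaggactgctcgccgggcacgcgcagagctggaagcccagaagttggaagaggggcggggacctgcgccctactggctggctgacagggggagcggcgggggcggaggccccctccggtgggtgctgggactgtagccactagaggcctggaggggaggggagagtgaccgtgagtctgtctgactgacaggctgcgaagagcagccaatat

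Of 11 venous identity genes, 3 passed higher in muscle and none higher in aorta, beside 22.3% called over all probes. The venous factor Nr2f2 did not pass (0.58, adjusted p = 0.0777). Under the endothelial scaling 3 venous identity genes passed higher in aorta and none higher in muscle, beside 9298 and 349 of 26342 probes. Nr2f2 was there at 1.61 (0.00585). Capillary genes were higher in muscle in 9 of 16 and higher in aorta in none, with a median difference of −1.10. Timp4, a metalloprotease inhibitor of capillary endothelium, was between 2.52 and 5.49 in aorta (median 4.01) and between 6.08 and 7.03 in muscle (median 6.23), and Slc28a2, a nucleoside transporter, between 1.41 and 3.41 in aorta and between 4.18 and 5.18 in muscle. Neither gene overlapped between the tissues. Timp4 differed by −2.33 (SE 0.38, adjusted p = 0.00107) and Slc28a2 by −2.04 (SE 0.33, adjusted p = 0.00111), and both stayed called under the endothelial scaling at −1.30 (0.00425) and −1.01 (0.00942), as did no other capillary gene in that direction. Cd300lg, an adhesion receptor of capillaries and high endothelial venules, at −1.55 (adjusted p = 0.00616), came to −0.51 (0.125) there and to −1.32 (0.114) without trial 2. The 9 capillary genes became 6, 2 and 4 without trials 1, 2 and 3, and 14 with the block for pairs.

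**Figure D3:**
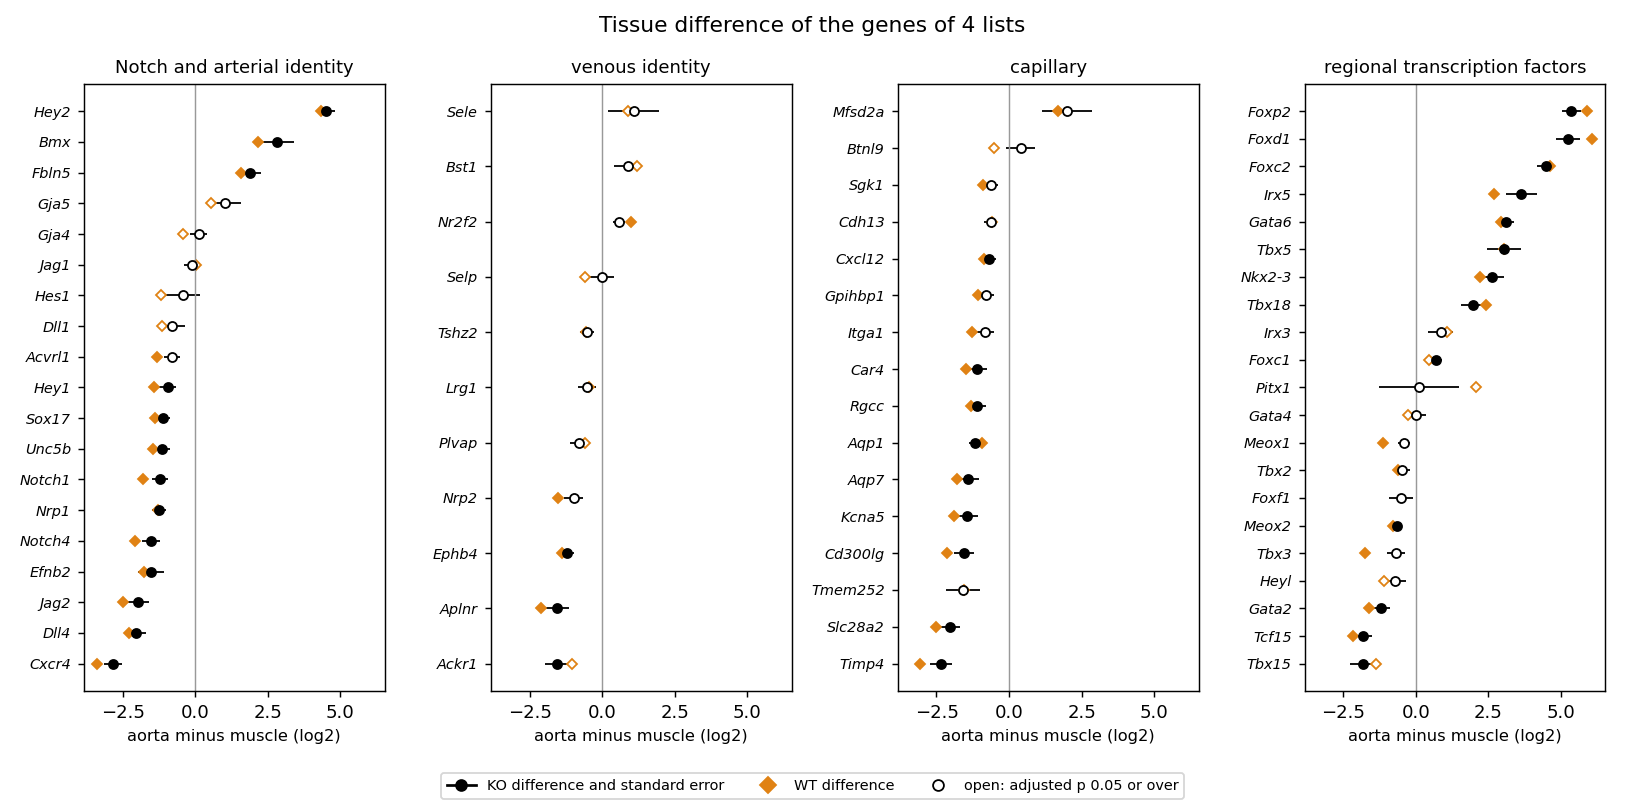
Difference between aorta and muscle (x axis, log2, aorta minus muscle) of the genes of 4 lists in KO mice, with the standard error (black circles), beside the difference in WT mice (orange diamonds); open symbols did not pass, and 1 gene is not shown. Hey2, Bmx and the regional factors Foxp2, Foxd1 and Foxc2 stood on the aortic side, and Cxcr4, Dll4, Timp4, Slc28a2 and Tcf15 on the muscle side.

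Matrix genes formed the second large block on the aortic side, and shared Fbln1, Mfap5, Lum, Dcn, Col1a1 and Col1a2 with the fibroblast markers above. Of 17 elastic fibre genes 13 passed higher in aorta and none higher in muscle (median difference 2.06), and of 17 fibrillar collagens and small proteoglycans 14 did and none higher in muscle (median 3.20). Ltbp2, a latent TGF-beta binding protein of microfibrils, was between 0.40 and 3.40 in aorta (median 2.15) and between −6.34 and −2.44 in muscle (median −3.57), a difference of 6.00 (SE 0.65, adjusted p = 5.78e-05). Fibrillin-1 (Fbn1) differed by 2.06 (SE 0.31, adjusted p = 0.000531). Elastin itself (Eln) was among the smaller differences at 1.34 (SE 0.38, adjusted p = 0.0258), a call lost when trial 1, 2 or 3 was left out (0.11, 0.0721 and 0.135). The small proteoglycans Omd (5.18, SE 0.45, adjusted p = 1.3e-05) and Bgn (3.51, SE 0.35, adjusted p = 3.12e-05) had no overlap. Between 10 and 11 elastic fibre genes passed when a trial was left out.

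Basement membrane genes were divided, with 5 of 21 higher in aorta and 7 higher in muscle, beside 10.2% and 12.0% of all probes. Col4a5, a collagen IV chain, was not well above background on any muscle array and was at least 22.9-fold higher in aorta (adjusted p = 2.34e-05). Col18a1, the source of endostatin, differed by 2.08 (SE 0.29, adjusted p = 0.000319). Col4a1, the main collagen IV chain, ran from 4.97 to 5.55 in aorta and from 5.80 to 6.57 in muscle (difference −0.84, SE 0.18, adjusted p = 0.00642), and Lama5, a laminin chain of vessels, differed by −1.52 (SE 0.29, adjusted p = 0.00325). Under the endothelial scaling Col4a1 was at 0.20 (0.548) and Lama5 at −0.48 (0.134), so their direction depended on the scale or was no longer called. Col4a1 lost its call without trial 1 (0.0638) or 2 (0.11), and Lama5 without trial 2 (0.0872).

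Enzymes and receptors that set vessel tone differed by pathway. Of 34 vasoactive genes, 8 passed higher in aorta and 10 higher in muscle, beside 10.2% and 12.0% of all probes. This balance depended on the scale, with 10 and 6 in the deposited table and 14 and 0 under the endothelial scaling. On the latter 9298 and 349 of 26342 probes passed. The prostanoid genes called, Ptgs2, Ptgis and the receptor Ptgfr, were on the aortic side. Ptgs2 (cyclooxygenase-2, which makes the precursor of prostaglandins) was between −0.09 and 1.99 in aorta (median 1.29) and between −9.09 and −4.60 in muscle (median −5.09), where 4 of 6 arrays were well above background. It differed by 7.30 (SE 0.76, adjusted p = 4.57e-05), and Ptgis, the prostacyclin synthase, by 6.87 (SE 0.68, adjusted p = 3.13e-05). Agt, angiotensinogen, differed by 4.44 (SE 0.62, adjusted p = 0.000346). Nos3, the endothelial nitric oxide synthase, was higher in muscle by −1.26 (SE 0.39, adjusted p = 0.0366), a call lost without trial 1 (−0.99, 0.116) or trial 2 (−1.10, 0.263) and with the endothelial scaling (−0.22, 0.563). Edn1, which encodes the vasoconstrictor endothelin-1 (0.20, adjusted p = 0.695), and Ace, the angiotensin-converting enzyme (0.25, 0.553), did not pass.

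Among 18 flow-responsive genes, 7 passed higher in aorta and 4 higher in muscle, beside 10.2% and 12.0% of all probes. Cyp1b1, a cytochrome P450 induced by shear stress, was between 4.70 and 5.29 in aorta (median 4.85) and between −3.63 and 0.13 in muscle (median −2.10) without overlap. Its difference was 6.98 (SE 0.49, adjusted p = 4.17e-06). The shear-induced factors Klf2 (−0.54, adjusted p = 0.0972) and Klf4 (−0.26, adjusted p = 0.473) did not pass, though Klf2 passed higher in muscle with the block for pairs (adjusted p = 0.0263). Under the endothelial scaling they were at 0.50 and 0.78.

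Of 19 haemostasis genes 7 passed higher in aorta and 1 higher in muscle, beside 10.2% and 12.0% of all probes, and 11 were not called. Tissue factor (F3), which starts coagulation, was between 2.71 and 4.84 in aorta (median 4.49) and between −4.43 and −0.95 in muscle (median −2.92), a difference of 6.77 (SE 0.61, adjusted p = 1.72e-05). F8, coagulation factor VIII, differed by 2.32 (adjusted p = 0.00583), and by 2.53 (0.0525) without trial 2. F2rl3, the thrombin receptor PAR4, was the 1 gene higher in muscle, with 1 of 6 aorta arrays well above background and a difference of −3.08 (SE 0.43, adjusted p = 0.000374).

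Of 29 genes of the VEGF, angiopoietin and BMP list 9 passed on each side, beside 10.2% and 12.0% of all probes. Under the endothelial scaling 12 passed higher in aorta and none higher in muscle, beside 9298 and 349 of 26342 probes. The ligands Vegfd (5.91, SE 0.59, adjusted p = 3.27e-05), Vegfa (1.96, SE 0.29, adjusted p = 0.000573), Vegfb (1.44, SE 0.26, adjusted p = 0.00199) and Bmp4 (1.97, SE 0.22, adjusted p = 6.64e-05) were higher in aorta. Vegfd ran from 2.27 to 4.39 in aorta and from −4.47 to −1.002 in muscle, and Vegfa from −0.33 to 0.62 and from −2.90 to −1.13. Vegfc did not pass (−0.24, adjusted p = 0.543), and the ligands Angpt2 (−1.001), Bmp6 (−1.07) and Tgfb1 (−1.37) passed higher in muscle. The receptors Kdr, Flt1 (−1.06, adjusted p = 0.0191) and Nrp1 (−1.25) passed higher in muscle, and under the endothelial scaling Kdr and Flt1 were at 0.15 and −0.02. Flt1, like Kdr, lost its call without trial 2 or trial 3 (0.127 in each). Gdf10 (BMP-3b) had the largest difference of the list, 8.41 (SE 1.13, adjusted p = 0.000263).

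Guidance genes were divided, with 8 of 22 higher in aorta and 11 higher in muscle, beside 10.2% and 12.0% of all probes. Slit2, a secreted guidance ligand, was between 0.46 and 2.17 in aorta (median 0.91) and between −5.26 and −3.15 in muscle (median −4.05). It differed by 5.21 (SE 0.36, adjusted p = 3.67e-06), its receptor Robo1 by 3.33, and the endothelial relative Robo4 by −1.03. The ephrin receptor Epha3 differed by 7.01 (SE 0.79, adjusted p = 8.09e-05), and Sema3c, a semaphorin, was not well above background in muscle and was at least 18.6-fold higher in aorta (adjusted p = 2.98e-06). Under the endothelial scaling 9 guidance genes passed higher in aorta and none higher in muscle. Without trial 2 the guidance genes higher in muscle fell to 2, with 7 higher in aorta.

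Of 20 chemokines and their receptors 12 passed higher in aorta and 3 higher in muscle, beside 10.2% and 12.0% of all probes. Ccl19, which draws lymphocytes and dendritic cells, was between 1.82 and 5.27 in aorta (median 4.21) and between −2.31 and 0.94 in muscle (median −1.18), a difference of 4.77 (SE 0.71, adjusted p = 0.000582). Ccl2, the monocyte chemokine, differed by 3.07 (SE 0.53, adjusted p = 0.00166) and Cxcl10, which interferon induces, by 2.73 (SE 0.32, adjusted p = 0.000109). Among the 18 interferon-stimulated genes 6 passed higher in muscle, beside 12.0% of all probes, and Cxcl10 alone passed higher in aorta. Only 1 interferon-stimulated gene passed higher in muscle in the deposited table, and under the endothelial scaling none did and 2 passed higher in aorta. Without trial 2, 4 chemokine genes passed higher in aorta. Of 15 immediate early genes, the first transcripts to rise when cells are handled or stimulated, 6 passed higher in aorta (2 without trial 2), including Nr4a1 (2.06, SE 0.27, adjusted p = 0.000244), while Fos (0.54, adjusted p = 0.123) and Jun (0.09, adjusted p = 0.798) did not. Of 18 adhesion molecules Vcam1 passed higher in aorta (1.69, SE 0.22, adjusted p = 0.000213) and 6 passed higher in muscle, beside 10.2% and 12.0% of all probes. Itga6, the laminin receptor chain, was at −2.21 (SE 0.39, adjusted p = 0.0018) and at −1.17 (0.0157) under the endothelial scaling.

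Of 24 genes of the insulin, IGF and glucose list, 5 passed higher in aorta and 2 higher in muscle, beside 10.2% and 12.0% of all probes. Igf1 was between 2.31 and 4.75 in aorta (median 3.31) and between −0.83 and 1.06 in muscle (median −0.15), a difference of 3.37 (SE 0.29, adjusted p = 1.23e-05). Its binding protein Igfbp3 was between 1.74 and 2.56 in aorta and between 3.80 and 4.69 in muscle, a difference of −2.07 (SE 0.16, adjusted p = 7.13e-06) that stayed called at −1.03 (0.0178) under the endothelial scaling. The insulin receptor Insr (−0.54, adjusted p = 0.471) and the glucose transporters Slc2a1 (−0.75, 0.068) and Slc2a4 (−1.33, 0.053) did not pass. Housekeeping genes lay near the median of all probes (median difference −0.34), with 3 of 10 higher in muscle, beside 12.0% of all probes. The mean level of this list was between 3.64 and 3.93 on aorta arrays and between 3.98 and 4.38 on muscle arrays. It thus did not overlap between the tissues either, as for the pan-endothelial list. Of 15 clock genes and of 19 cell cycle genes, 1 passed on each side. Under the endothelial scaling 6 clock genes and 11 cell cycle genes passed higher in aorta and none higher in muscle. On that scale 9298 and 349 of 26342 probes passed.

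Among genes read in one tissue and not well above background on any array of the other, 50 called probes were on the aortic side and 17 on the muscle side. These probes entered the test only through the tissue that read them. Their adjusted p-values therefore add no support beyond that selection, as for Atp2a1, Elovl3, Col4a5 and Sema3c above. The share called among all tested probes of this kind was not taken. The largest bounds on the aortic side were those of Coch (at least 66.3-fold higher, adjusted p = 3.49e-05), the anion transporter Slc26a4 (57.7-fold, 2.55e-05), the alcohol dehydrogenase Adh7 (56.4-fold, 7.95e-06), Sntg2 (45.6-fold, 4.17e-06) and the bicarbonate transporter Slc4a10 (45.4-fold, 5.28e-06). Coch was between −2.92 and 1.86 in aorta and Slc26a4 between −3.49 and 2.25, whereas Sntg2 kept to −1.47 to 0.29. On the muscle side, beside Atp2a1, stood the Ly49 receptor genes Klra10 (at least 20.4-fold, 2.69e-05) and Klra6 (15.5-fold, 7.95e-06), whose near-identical paralogs may share their probes, and Nmrk2, a nicotinamide riboside kinase of muscle (15.97-fold, 0.000705). Prom1, a membrane protein known as CD133, was read on all 12 arrays and differed by −3.996 (SE 0.41, adjusted p = 4.18e-05), with −4.57 to −1.77 in aorta and −0.35 to 2.20 in muscle.

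The same tissue difference was measured in WT mice, whose arrays, the HFD arrays of trial 1 included, the KO comparison did not use. WT and KO arrays of a tissue and trial lay on the same slide and were scanned in the same session. A slide effect that goes with tissue would therefore recur in WT, and the WT values are not an independent repeat in that respect. In WT 8278 of 26574 probes passed (31.2%). Of 5718 probes called in KO and tested in WT, 4736 were called in WT in the same direction and none in the opposite one, and 5678 had the same sign. Among the probes called higher in aorta in KO the median difference was 2.27 in KO and 2.39 in WT, and among those called higher in muscle −1.17 and −1.23. Hey2 differed by 4.50 in KO and 4.35 in WT, Foxc2 by 4.47 and 4.62, Tcf15 by −1.81 and −2.19, Dll4 by −2.04 and −2.27, and Ucp1 by 10.19 and 9.95. No probe of 27387 passed the test of the difference between the strains (limma, smallest adjusted p 1.00), with 592 (2.16%) at an unadjusted p under 0.05. A median standard error of 0.46 limited this test, and a probe that did not pass is not shown to be equal in KO and WT. Lgals3 was read by a probe whose place relative to the deleted exons is not known, so it does not check the genotype. It was well above background on all 12 KO arrays, between 2.40 and 4.53 in aorta and between 4.31 and 6.31 in muscle (difference −1.37, SE 0.40, adjusted p = 0.0299), and its call was lost without any 1 trial (adjusted p = 0.106, 0.056 and 0.131) and with the endothelial scaling (−0.33, 0.466). In WT it was between 0.90 and 3.20 in aorta and between 3.27 and 4.98 in muscle.

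**Figure D4:**
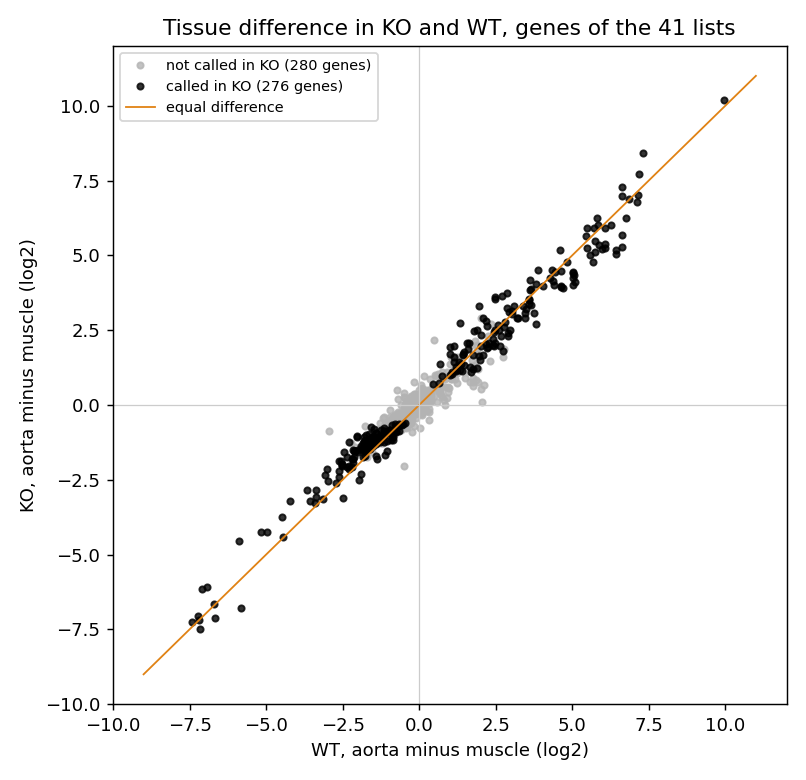
Difference between aorta and muscle in KO (y axis) against that in WT (x axis), log2, for 556 genes of the 41 lists tested in both strains, black where called in KO. All 276 genes called in KO had the same sign in WT, and the line marks equal differences.

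In the test of whether diet changed the tissue difference, 1 probe of 26342 passed (0.00380%, limma, 1292 or 4.90% at an unadjusted p under 0.05). A median standard error of 0.63 limited this test. On simulated data without pool or slide effects it recovered 8 of 100 probes changed by 2 and 68 of 100 changed by 4 on the log2 scale. A probe that did not pass is not shown to be unaffected by diet. The probe that passed belonged to Pnoc, the precursor of the neuropeptide nociceptin. On aorta arrays it read −2.17, −1.999 and −2.27 with HFD and −7.59, −8.23 and −8.19 with chow, and on the muscle arrays it was between −8.999 and −7.56. It was well above background on the 3 HFD aorta arrays and on no other KO array, and was at least 13.6-fold higher there than on the chow aorta arrays and 14.9-fold higher than on the HFD muscle arrays. The probe entered the test only through the HFD aorta group, in which it was high. The fitted interaction of 5.69 (SE 0.54, adjusted p = 0.0102) therefore adds no support beyond these bounds. In WT the same probe was well above background on the 3 HFD aorta arrays, between −5.08 and −3.04, on 1 of 3 chow aorta arrays and on no muscle array. The second Pnoc probe, the brighter on those arrays, did not pass this test. It lay between 0.43 and 1.14 on the KO HFD aorta arrays and between −8.29 and −5.36 on the KO chow aorta arrays. In KO muscle it lay between −8.00 and −3.75 with chow and between −7.06 and −5.67 with HFD. It was well above background on 1 of 3 chow aorta, 2 of 3 chow muscle and 1 of 3 HFD muscle arrays of KO. The call of the first probe was lost without any 1 trial, without the HFD arrays of trial 1 and with the block for pairs.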

How the data were processed

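RNA of sorted cells was hybridised to Agilent Whole Mouse Genome 44K arrays, 1 per pool. The authors extracted the deposited intensity values with Agilent Feature Extraction (10.5.1.1 per the file headers, 9.1 in the submitters' processing notes). The processed signal, already background-subtracted, was divided by each array's 75th percentile over 43379 non-control spots, log2-transformed and averaged over spots of a probe. The deposited log2 table, made by the authors, served as an alternative.

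Comparisons were fitted with limma 3.58.1 (R 4.3.3), with Benjamini-Hochberg adjustment. Probes entered the test when 1 or more of the 4 KO groups had all its arrays well above background, and the brightest probe stood for a gene. A fold against a tissue with no array above background is a lower bound: the mean of the bright group over the mean, per array, of the higher of the dim signal and the lowest signal of a probe above background. Of 41174 probes 27198 carried a symbol. The genes named were the leading members of 41 lists of 630 genes, the largest differences and bounds, called interactions and Lgals3. Other list members are given with their list's count, and some are not reported here by name. The lists and the comparison were chosen with earlier results of these data known.

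Aorta and muscle of a diet and trial came from the same mice, so trial numbers pair the arrays. Deviations of same-numbered arrays from their group means correlated at 0.083 to 0.425 (5 of 6 over 0.1), other numbers at −0.404 to 0.106. On simulated data with the KO design, 73 of 100 probes changed by 2 and 94 of 100 changed by 4 on the log2 scale were recovered for the tissue difference. For the diet interaction 8 and 68 were. The simulated noise was independent between arrays, without pool or slide effects. Far fewer probes were changed than the 5862 called for the tissue difference. The recovered shares therefore do not measure the sensitivity of the comparison in the data. The number of arrays limits the precision. Alternatives were background correction (normexp with offset 50 on the median signal), scaling, filters, arrays or trials left out, slide, scan session, pairing and the methods' test on the 6 ratios.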

Additional observations from a re-analysis of the deposited data

Results flagged for a closer look

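Of 398 groups of 6 arrays examined, 19 held an array far from the other 5 by Dixon's criterion, and chance gives about 1 in 20. In the chow aorta array of trial 1 the erythroid list stood high at 1.67, as did Atp2a1 (−5.58), Tnnc2 (1.82) and Myl3 (−0.27). In the HFD muscle array of trial 2, Timp4 (7.03), Aqp7 (5.81), Gpihbp1 (7.64), Flt1 (6.89) and Higd1b (5.08) stood high and Lama3 (−2.03) low. In the HFD aorta array of trial 1, Vwf (4.61) and Gja4 (1.95) stood low. In the chow muscle array of trial 1 the venous identity list (1.77), Nr4a1 (2.55) and Cxcl10 (−3.56) stood low, and in that of trial 2 the smooth muscle list (−0.15) and Dio2 (−6.34). In aorta, F8 stood high on the HFD array of trial 3 (0.57) and Bmp4 on the chow array of trial 3 (3.69).

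On the called probe of Pnoc the tissue difference differed between the diets in KO by 5.69 on the log2 scale in the test of that difference itself. Its second probe did not pass. The called probe was not above background in 3 of the 4 KO groups, so only the bounds of 13.6-fold over chow aorta and 14.9-fold over HFD muscle can be read, and the call was lost without any 1 trial.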

How the results depend on the processing

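Leaving out a trial gave 1900 to 3558 called probes in KO, 1315 to 2110 higher in aorta and 585 to 1448 higher in muscle, and the highest counts with 1 array left out, the chow aorta array of trial 1, were 6278, 2719 and 3559. Within scan session 1 the counts were 0, 0 and 0, within session 2 3558 called and 1448 higher in muscle, with chow alone 1237, 896 and 341, and with HFD alone 2862 called and 1024 higher in muscle. The pan-endothelial scaling, chosen after seeing the data, gave 9647, 9298 and 349. Probes higher in muscle numbered 1371 in the deposited log2 table, 1802 without the HFD arrays of trial 1, 1907 with slide as a random block and 5277 with the replicate block for arrays of the same mice, against 3162. With slide as a random block 4101 probes were called in either direction, against 5862. The replicate block made Cd36, Gpihbp1, Lpl and Klf2 pass. The strain interaction gave 1 probe with quantile normalization and 1 with the replicate block. The diet interaction gave 2 with normexp, 2 with quantile normalization, 0 with probes above background on every array, 0 without the HFD arrays of trial 1, 0 with the replicate block and 0 to 0 with a trial left out.

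Over the named genes and alternatives, 4695 values kept their side of the threshold and direction, 522 were no longer called, 55 became called and 31 changed sign. With the pan-endothelial scaling the differences that changed sign were Pecam1 0.19, Cdh5 0.17, Eng 0.021, Kdr 0.15, Vwf 0.76, Pdgfrb 0.89, Tagln 0.084, Meox2 0.39, Gpihbp1 0.24, Fabp4 0.62, Cd36 0.38, Lpl 0.18, Klf2 0.50, Klf4 0.78, Col4a1 0.20, Col4a2 0.0088 and Cxcl12 0.35. Others were Vwf 0.047 (quantile) and 0.18 (chow), Pdgfrb 0.084 (quantile), 0.12 (deposited table) and 0.35 (HFD), and Klf4 0.0076 (deposited table). Within session 1 Pdpn was at −0.20, Csf1r at −1.14, Gja5 at −0.95 and Gja4 at −0.82, and with HFD alone Gja4 was at −0.15. With a trial left out Pdpn ranged from −0.16 to 0.85 and Gja4 from −0.13 to 0.59. The cause was not tested.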
